A study of Mus musculus with 12 samples.

Results

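The comparison described here asks what a c-Myc transgene adds in livers that already carry an AEG-1 transgene. It sets the 3 AEG1_MYC libraries of the series against its 3 AEG1 libraries, 6 of 12 libraries in all, chosen by genotype label and not by any measured value. Each library is liver RNA of 1 adult mouse that received no treatment, sequenced after total RNA extraction and TruSeq library preparation. The AEG1_MYC mice carried both the Alb/AEG-1 and the Alb/c-Myc transgene. The AEG1 mice carried Alb/AEG-1 alone, so both sides of the comparison hold the AEG-1 transgene. All mice came from crosses of Alb/AEG-1 heterozygotes with Alb/c-Myc heterozygotes, and the other offspring classes, MYC (Alb/c-Myc alone) and WT, with 3 libraries each, are used only as a second setting for the same c-Myc difference. The albumin promoter of these lines is active in hepatocytes, so a difference in another cell type is not a direct readout of the transgene. Sex, exact age, litter, hour of collection and batch were not given in the labels. The p-values rest on an estimate of the spread between mice that all 12 libraries share. The AEG1_MYC livers differed more among themselves than the AEG1 livers, and that estimate does not allow for this.

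c-Myc is a transcription factor that pairs with MAX, binds the E-box CACGTG and promotes ribosome production, metabolism and cell division. AEG-1, the protein of Mtdh, is a membrane-associated protein known to be raised in liver cancer. Hepatocytes differ along the lobule: Wnt signals from the central vein keep pericentral genes such as Glul on, while periportal hepatocytes make urea and glucose. Wnt signalling also switches on its own inhibitors, among them Nkd1, Axin2, Notum, Rnf43 and Znrf3.

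The 6 libraries held 21931197 to 40552316 reads in genes, with 15496 to 16329 genes detected. The AEG1_MYC livers differed more among themselves than the AEG1 livers: the mean correlation of log2 CPM (counts scaled to a common library size) with the libraries of their own group was 0.949, 0.936 and 0.952 in AEG1_MYC livers, against 0.981, 0.980 and 0.974 in AEG1 livers. On the first principal component of all 12 libraries, AEG1_MYC replicates 1, 2 and 3 stood at 34.1, 99.2 and 10.7, and every other library lay between -27.2 and 1.83. Albumin reads made up 4.06%, 2.87% and 5.55% of reads in AEG1_MYC livers, against 6.41%, 6.85% and 6.18% in AEG1 livers. The sum of 10 hepatocyte markers was 73578, 53438 and 93354 CPM in AEG1_MYC livers, against 101124, 106133 and 98538 CPM in AEG1 livers, so the labelled tissue was seen in every library. AEG1_MYC replicate 2 also stood apart in 4 Y-linked genes, whose summed level was 8.27 CPM there and 172 to 285 CPM in the other 11 libraries, while Xist did not pass 0.781 CPM in any library. Replicate numbers name a mouse and pair nothing.

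Myc itself was the first check of the labels. It had 72.98, 165 and 58.4 CPM in AEG1_MYC livers, against 3.93, 3.54 and 4.59 CPM in AEG1 livers. Every AEG1_MYC liver lay above every AEG1 liver, and replicate 2 held the highest level of the series. Myc rose in AEG1_MYC livers (log2 fold change 4.61 ± 0.49, adjusted p = 0.00523 by edgeR's quasi-likelihood test, Benjamini-Hochberg adjusted over all tested genes). The call was lost without AEG1 replicate 1 (adjusted p = 0.0791), without AEG1 replicate 2 (adjusted p = 0.0618) and with the 6 compared libraries fitted alone (adjusted p = 0.116), at log2 fold changes of 4.55 to 4.62. Its mean was 98.8 ± 57.9 CPM in AEG1_MYC livers and 4.02 ± 0.532 CPM in AEG1 livers (SD, n = 3 each). Mtdh had 112, 91.5 and 88.95 CPM in AEG1_MYC livers, against 98.2, 101 and 92.99 CPM in AEG1 livers, and the groups overlapped (log2 fold change 0.00 ± 0.10, adjusted p = 0.989). Whether reads of the AEG-1 transgene could count as Mtdh is not given in the labels, so Mtdh does not check the shared transgene.

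Of 13684 tested genes, 41 rose (0.300%) and 3 fell (0.0219%) in AEG1_MYC against AEG1 livers at an adjusted p under 0.05. All 44 had non-overlapping groups and 43 differed at least by 1 on the log2 scale. Over all tested genes, 9.60% had all AEG1_MYC livers above all AEG1 livers and 8.24% had them all below. At an unadjusted p under 0.05, 10.1% of all tested genes were higher and 7.33% lower, 1384 and 1003 genes. DESeq2 called 3.45% of genes higher and 1.67% lower, 472 and 228 genes, and these held all 44. The counts for the gene lists below are to be read beside these shares over all tested genes. Of the 41 rises, 37 lay in all 3 AEG1_MYC livers above all 9 other livers of the series, and 2 of the 3 falls lay below all 9. Of all 13684 tested genes, 416 lay above and 278 below all 9 others. The called genes already had no overlap with the AEG1 livers, which are 3 of those 9. The size of the rises was uneven: AEG1_MYC replicate 2 was the highest of its group for 32 of 41 genes and replicate 3 the lowest for 30. The median difference from the AEG1 mean over these 41 genes was 2.90, 3.83 and 2.40 on the log2 scale in AEG1_MYC replicates 1, 2 and 3. The number of rises changed when single livers were left out. Leaving out AEG1_MYC replicate 1, 2 or 3 gave 63, 24 or 392 rises. Leaving out AEG1 replicate 1, 2 or 3 gave 4, 5 or 21. Of the 44 called genes, 4 were called in all 12 fits that leave out 1 library, 20 in 7 to 10 of them, 9 in 3 to 5, 8 in 2 and 3 in 1. The 9 were Dyrk3, Sp5, Rasgrf2, Plat, Ces2c, Scn4b, Hrk, Arhgef3 and Gucy1b3. Among the 8 were Rec8, Mirg, Aacs, Amacr, 1500012F01Rik, Cib2 and Kif15, and the 3 were Socs3, Atp10a and Tmc6. The calls shared with the 44 numbered 4 without AEG1 replicate 1, 5 without AEG1 replicate 2, 14 without AEG1 replicate 3 and 22 without AEG1_MYC replicate 2. The number of falls was 238 without AEG1_MYC replicate 3, 1 without AEG1_MYC replicate 2, and 0 without AEG1 replicate 1 or AEG1 replicate 2. The libraries outside the comparison share its estimate of spread, and the rises numbered 27 without WT replicate 2, 23 without WT replicate 3, 20 without MYC replicate 2 and 27 without MYC replicate 3; the falls numbered 1 without WT replicate 1, WT replicate 3 or MYC replicate 2. With the 6 compared libraries fitted alone, 2 genes rose, Nkd1 and Pnliprp1.

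**Figure D1:**
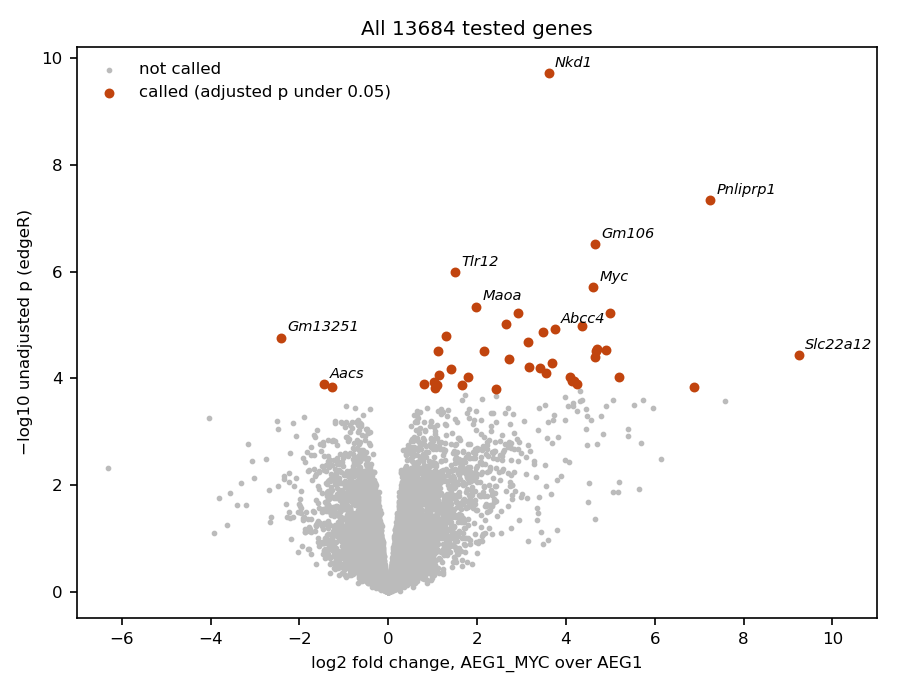
Each point is 1 of 13684 tested genes, with the log2 fold change of AEG1_MYC over AEG1 on the x axis and −log10 of the unadjusted edgeR p on the y axis; orange points are called at an adjusted p under 0.05. Nkd1 stands highest at a log2 fold change of 3.61, and 41 of the 44 called genes lie on the right, the side of higher levels in AEG1_MYC livers.

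4 genes formed the most stable core of the rises, and each rose whichever of the 12 libraries was left out. Nkd1, an inhibitor that binds Dishevelled and is itself a Wnt target, had 59.9, 83.9 and 66.2 CPM in AEG1_MYC livers, against 5.77, 5.68 and 5.72 CPM in AEG1 livers. The AEG1 livers were within 0.1 CPM of each other, while the AEG1_MYC livers were all over 10 times as high (log2 fold change 3.61 ± 0.16, adjusted p = 2.57e-06). Pnliprp1, a lipase-related protein known from pancreatic acinar cells, had 11.5, 26.1 and 15.5 CPM in AEG1_MYC livers, against 0.195, 0.0485 and 0.0753 CPM in AEG1 livers. It was near 0 in AEG1 livers and well above that in all AEG1_MYC livers (log2 fold change 7.25 ± 0.54, adjusted p = 0.000312). Of 22 acinar markers in the tables, 20 were too low to be tested and the other one, Cela1, overlapped between groups (17.5, 14.6 and 42.8 CPM in AEG1_MYC livers, against 44.1, 31.6 and 17.2 CPM in AEG1 livers). With no filter but at least 1 read, 12 acinar markers were tested and 0 other than Pnliprp1 were called by edgeR, with 1 of these at an unadjusted p under 0.05. Gm106, named Sbspon in RefSeq, had 10.01, 8.298 and 3.72 CPM in AEG1_MYC livers, against 0.251, 0.243 and 0.351 CPM in AEG1 livers. All AEG1_MYC livers lay above all AEG1 livers, with replicate 3 the lowest of them (log2 fold change 4.66 ± 0.42, adjusted p = 0.00137). Tlr12, a mouse Toll-like receptor that recognises profilin of parasites, had 19.6, 25.1 and 24.3 CPM in AEG1_MYC livers, against 7.56, 7.81 and 9.04 CPM in AEG1 livers. Its AEG1_MYC livers lay close together, replicate 1 lowest (log2 fold change 1.5 ± 0.15, adjusted p = 0.00349). Nkd1 and Pnliprp1 were called under all 23 alternatives, Gm106 and Tlr12 under 22.

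**Figure D2:**
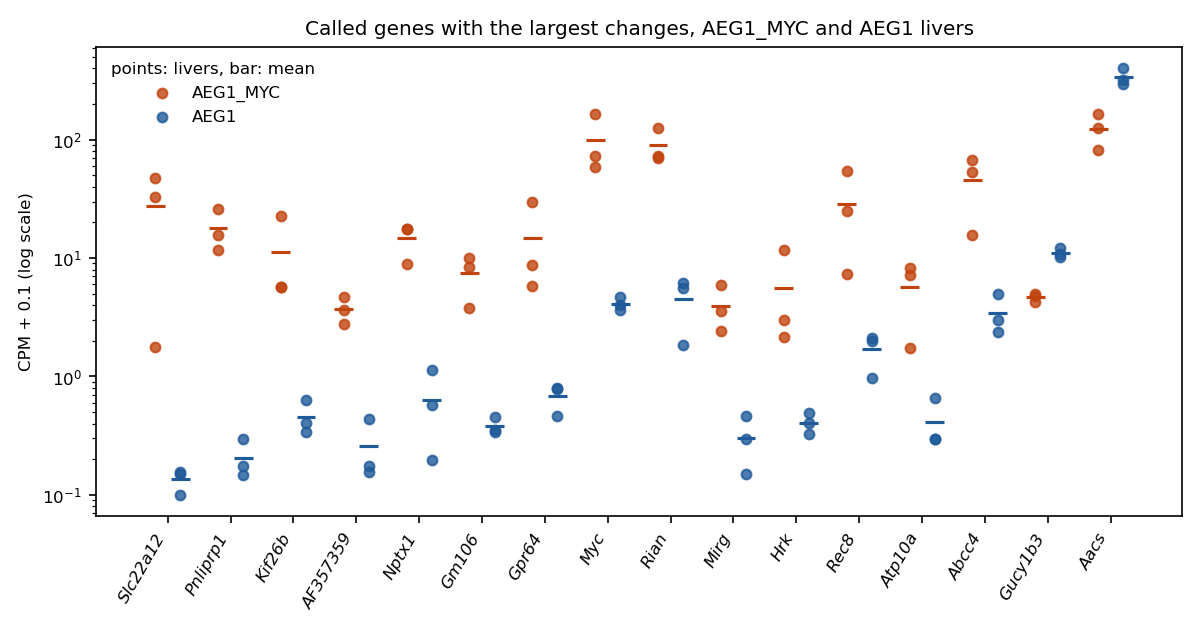
CPM plus 0.1 on a log axis in AEG1_MYC (orange, left) and AEG1 livers (blue, right) for 14 of the 15 genes with the largest rises and the 2 falls that met the naming rule; each point is 1 liver and each bar a mean. The groups do not overlap for any of these genes, and Slc22a12 has 1 AEG1_MYC liver, at 1.67 CPM, far below the other two.

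The list with the most called genes was that of Wnt feedback and pericentral genes. Of 25 tested members, 4 rose and 0 fell. All 25 had positive log2 fold changes, with a median of 1.83 beside 0.01 over all tested genes, and in 21 every AEG1_MYC liver lay above every AEG1 liver. At an unadjusted p under 0.05 edgeR had 22 of the 25 higher and 0 lower, and DESeq2 called 20 higher. In bulk liver, more cells of a type and more RNA per cell cannot be told apart. The median difference from the AEG1 mean was 1.18, 2.49 and 1.16 in AEG1_MYC replicates 1, 2 and 3. Leaving out AEG1_MYC replicate 1, 2 or 3 gave 7, 4 or 17 members that rose, with list medians of 2.09, 1.03 and 2.09.

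The 4 members that rose were Nkd1, Slc1a2, Rhbg and Sp5. Slc1a2, a glutamate transporter of pericentral hepatocytes, had 1185, 2292 and 742 CPM in AEG1_MYC livers, against 119.8, 106 and 149.9 CPM in AEG1 livers (log2 fold change 3.49 ± 0.46, adjusted p = 0.0153). Rhbg, an ammonium transporter of the same cells, had 101, 239 and 72.9 CPM in AEG1_MYC livers, against 14.2, 17.96 and 14.7 CPM in AEG1 livers (log2 fold change 3.14 ± 0.43, adjusted p = 0.0191). In both genes the groups were far apart, with replicate 2 highest and replicate 3 lowest among AEG1_MYC livers. Sp5, a zinc-finger transcription factor induced by Wnt, had 7.301, 25.3 and 8.38 CPM in AEG1_MYC livers, against 1.14, 1.84 and 0.904 CPM in AEG1 livers (log2 fold change 3.42 ± 0.54, adjusted p = 0.0333; called in 4 of 12 fits that leave out 1 library). Sp5 too was highest in AEG1_MYC replicate 2, and here the other two AEG1_MYC livers were near each other.

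Promoter windows of genes in this group are shown because TCF and LEF factors carry Wnt signals at the sequence CTTTGAT. The windows run from 250 bases before to 50 after the annotated start, and both strands were searched. The letters were in the windows of 3 of the 32 called genes that had one (9.38%), against 4.29% of all 27025 genes with a window. The 3 genes were Slc1a2, Sp5 and Arhgef3; the window of Nkd1 held no match. The RefSeq windows (GRCm38.p6) of Sp5 at chr2:70474673-70474972, plus strand, and of Slc1a2 at chr2:102706188-102706487, plus strand, follow with the match in capitals, which in Slc1a2 reads on the opposite strand.
Sp5: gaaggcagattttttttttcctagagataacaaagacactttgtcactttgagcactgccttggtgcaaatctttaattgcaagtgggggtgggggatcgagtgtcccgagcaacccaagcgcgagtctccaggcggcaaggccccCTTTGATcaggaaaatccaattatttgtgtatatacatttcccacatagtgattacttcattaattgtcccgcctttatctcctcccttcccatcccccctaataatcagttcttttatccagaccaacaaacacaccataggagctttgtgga
Slc1a2: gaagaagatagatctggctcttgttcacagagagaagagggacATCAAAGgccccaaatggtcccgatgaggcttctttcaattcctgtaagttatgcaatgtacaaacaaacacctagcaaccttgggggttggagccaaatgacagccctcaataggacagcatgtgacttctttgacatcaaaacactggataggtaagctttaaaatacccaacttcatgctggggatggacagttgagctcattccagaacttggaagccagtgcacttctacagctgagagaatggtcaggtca
A match is a run of letters and not a site shown to be bound.

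Other members of the list were not called by edgeR and are given as values, chosen after their values were seen. Glul, which makes glutamine from glutamate and ammonium, had 3064, 15863 and 3070.5 CPM in AEG1_MYC livers, against 643, 568 and 879 CPM in AEG1 livers (log2 fold change 3.4 ± 0.66, adjusted p = 0.0724; DESeq2 adjusted p = 6.81e-07). AEG1_MYC replicate 2 was over 5 times the other two AEG1_MYC livers, which in turn exceeded all AEG1 livers. Lgr5, a receptor that strengthens Wnt signals, had 14.3, 73.9 and 15.9 CPM in AEG1_MYC livers, against 5.27, 3.397 and 5.87 CPM in AEG1 livers (log2 fold change 2.83 ± 0.63, adjusted p = 0.0911). Axin2, a scaffold of the β-catenin destruction complex, had 28.4, 70.4 and 34.8 CPM in AEG1_MYC livers, against 10.6, 12.7 and 6.78 CPM in AEG1 livers (log2 fold change 2.16 ± 0.49, adjusted p = 0.0976). Both showed the same order of AEG1_MYC livers, with replicate 2 far ahead, and no overlap between the groups. Oat, ornithine aminotransferase, had 1924, 4682 and 2186 CPM in AEG1_MYC livers, against 560.3, 518 and 1149 CPM in AEG1 livers (log2 fold change 1.98 ± 0.44, adjusted p = 0.0848). Notum, an enzyme that inactivates Wnt ligands, had 44.7, 141 and 56.1 CPM in AEG1_MYC livers, against 28.2, 30.3 and 22.4 CPM in AEG1 livers (log2 fold change 1.58 ± 0.37, adjusted p = 0.0986). Cyp2e1, a pericentral cytochrome P450 that oxidises ethanol, had 6296, 10840.4 and 8831 CPM in AEG1_MYC livers, against 5351, 5098 and 6659 CPM in AEG1 livers, with overlap (log2 fold change 0.60 ± 0.23, adjusted p = 0.22). Cyp1a2, a pericentral cytochrome P450 that oxidises caffeine, had 1067, 1629 and 854 CPM in AEG1_MYC livers, against 662, 535 and 536 CPM in AEG1 livers, without overlap (log2 fold change 1.03 ± 0.29, adjusted p = 0.131; DESeq2 adjusted p = 0.0147).

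**Figure D3:**
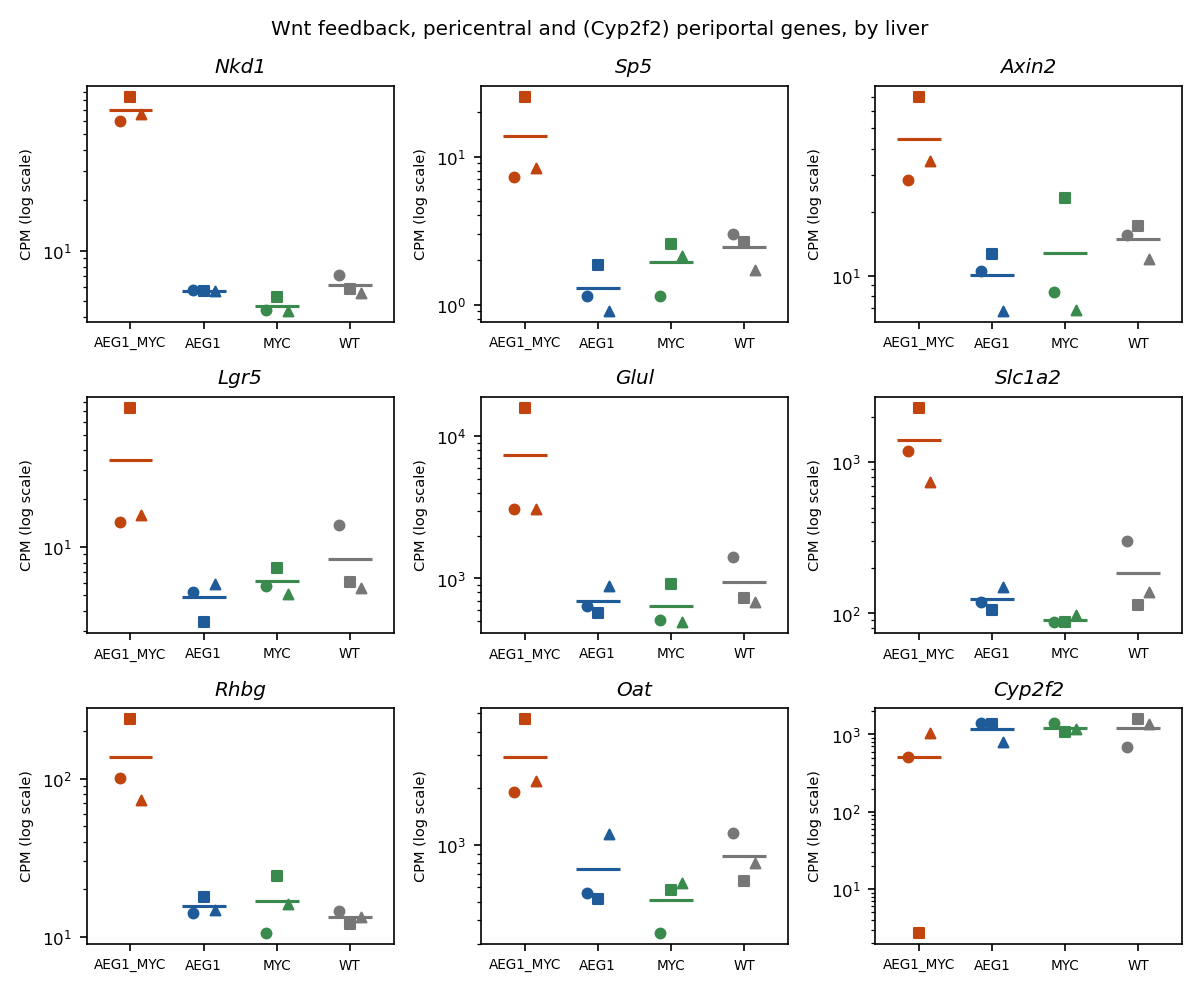
CPM on log axes in each of the 12 livers for 8 Wnt feedback and pericentral genes and the periportal gene Cyp2f2; circles, squares and triangles are replicates 1, 2 and 3, and bars are group means. For the called genes Nkd1, Slc1a2, Rhbg and Sp5 the 3 AEG1_MYC livers lie above all 9 others. AEG1_MYC replicate 2 is the highest for all 8 genes and, at 2.70 CPM, the lowest for Cyp2f2.

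Periportal genes had 0 called of 22 tested by edgeR and 0 by DESeq2. At an unadjusted p under 0.05, 1 was higher and 3 lower, beside 10.1% and 7.33% of all tested genes. The median of the periportal genes was -0.56. In 5 of them every AEG1_MYC liver lay below every AEG1 liver and in 0 above, beside 8.24% and 9.60% of all tested genes. The median difference from the AEG1 mean was -2.52 in AEG1_MYC replicate 2, against -0.12 in replicate 1 and -0.03 in replicate 3. The list's median was -0.09 without AEG1_MYC replicate 2 and -0.84 without replicate 1 or 3. Cyp2f2, a cytochrome P450 of periportal hepatocytes chosen after its values were seen, had 508, 2.697 and 1039 CPM in AEG1_MYC livers, against 1395, 1366 and 808 CPM in AEG1 livers. AEG1_MYC replicate 2 was thus far below every other liver, while replicate 3 lay among the AEG1 livers. The member with the smallest p was Hsd17b6, an oxidoreductase of steroids, with 86.8, 400.4 and 292 CPM in AEG1_MYC livers, against 116, 62.2 and 109 CPM in AEG1 livers (log2 fold change 1.44 ± 0.51, adjusted p = 0.198).

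Noncoding RNAs of the imprinted Dlk1-Dio3 region were high in all AEG1_MYC livers. This region carries maternally expressed long RNAs that host small nucleolar RNAs and microRNAs. 4 of its 8 genes in the tables were tested, and 3 rose. The rest were too low to be tested. Mirg and AF357359 had at most 13 and 7 reads in any liver outside the AEG1_MYC group, so they passed the filter through the AEG1_MYC livers. The 3 of 4 is thus not a share of the region. Rian, the host of many small nucleolar RNAs, had 125, 70.2 and 72.2 CPM in AEG1_MYC livers, against 5.44, 6.02 and 1.76 CPM in AEG1 livers (log2 fold change 4.36 ± 0.56, adjusted p = 0.0142). Mirg, a microRNA host, had 5.81, 2.34 and 3.47 CPM in AEG1_MYC livers, against 0.362, 0.194 and 0.0502 CPM in AEG1 livers (log2 fold change 4.24 ± 0.73, adjusted p = 0.0458). AF357359, a small nucleolar RNA of the same region, had 4.63, 3.53 and 2.696 CPM in AEG1_MYC livers, against 0.0558, 0.34 and 0.0753 CPM in AEG1 livers (log2 fold change 4.69 ± 0.68, adjusted p = 0.0213). In each case the lowest AEG1_MYC liver lay several times above the highest AEG1 liver. Meg3, the long RNA at the start of the cluster, had 349, 273 and 221 CPM in AEG1_MYC livers, against 24.98, 20.5 and 5.62 CPM in AEG1 livers, also without overlap, and was not called (log2 fold change 4.05 ± 0.78, adjusted p = 0.0724). Reads of a small RNA gene and of a host transcript that overlaps it cannot be told apart, since no strand setting was given. Other imprinted genes had 0 called by edgeR of 15 tested, out of 21 in the tables, and a median of -0.14. DESeq2 called 1 of the 15 higher, H19, and 0 lower, beside 3.45% and 1.67% of all tested genes. H19 had 4.13, 10.99 and 0.770 CPM in AEG1_MYC livers, against 0.892, 0.679 and 0.728 CPM in AEG1 livers, with overlap (DESeq2 adjusted p = 0.0218). Leaving out AEG1_MYC replicate 1, 2 or 3 gave 2, 2 or 4 rises in the Dlk1-Dio3 region.

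The called genes that follow are transporters, channels and receptors, grouped by function after their values were seen and not as a list. Slc22a12, the urate transporter of the kidney tubule, had 32.7, 47.2 and 1.67 CPM in AEG1_MYC livers, against 0.0558, 0 and 0.0502 CPM in AEG1 livers. The AEG1 livers held 4 reads in all, and AEG1_MYC replicate 3 was far below the other two AEG1_MYC livers (log2 fold change 9.24 ± 1.36, adjusted p = 0.0237). Abcc4, an exporter of bile acids and cyclic nucleotides, had 53.6, 67.7 and 15.5 CPM in AEG1_MYC livers, against 2.9, 2.28 and 4.87 CPM in AEG1 livers (log2 fold change 3.75 ± 0.49, adjusted p = 0.0147). It was lowest in AEG1_MYC replicate 3, which still lay well above every AEG1 liver. Atp10a, a phospholipid flippase, had 7.103, 8.15 and 1.64 CPM in AEG1_MYC livers, against 0.195, 0.194 and 0.552 CPM in AEG1 livers (log2 fold change 4.09 ± 0.68, adjusted p = 0.0409; called in 1 of 12 fits that leave out 1 library). Gpr64, an adhesion receptor known from the epididymis, had 8.56, 29.7 and 5.68 CPM in AEG1_MYC livers, against 0.362, 0.679 and 0.703 CPM in AEG1 livers (log2 fold change 4.66 ± 0.69, adjusted p = 0.0244). Scn4b, a β subunit of sodium channels, was near 0 in AEG1 livers and had 2.58, 1.66 and 0.706 CPM in AEG1_MYC livers, against 0, 0.0485 and 0.0753 CPM in AEG1 livers (log2 fold change 5.19 ± 0.77, adjusted p = 0.0409). Rises of the channel-family genes Ano8 and Tmc6 were small, with log2 fold changes of 1.31 ± 0.18 and 1.05 ± 0.19, and Tmc6 was called in 1 of 12 fits that leave out 1 library.

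Enzymes among the called genes were grouped in the same way. Maoa, which oxidises monoamines, had 74, 86.98 and 48.5 CPM in AEG1_MYC livers, against 17.2, 14.9 and 20.8 CPM in AEG1 livers (log2 fold change 1.98 ± 0.24, adjusted p = 0.0102). Isyna1, which makes inositol phosphate from glucose 6-phosphate, had 30.7, 33.9 and 12.9 CPM in AEG1_MYC livers, against 3.96, 4.27 and 4.04 CPM in AEG1 livers (log2 fold change 2.66 ± 0.34, adjusted p = 0.0142). For both, all AEG1_MYC livers were over 2 times the highest AEG1 liver. Amacr, a racemase needed for branched fatty acids and bile acid intermediates, had 243, 329 and 266 CPM in AEG1_MYC livers, against 180.2, 151 and 151 CPM in AEG1 livers (log2 fold change 0.80 ± 0.14, adjusted p = 0.0458). Aacs, which turns the ketone body acetoacetate into acetoacetyl-CoA for lipid synthesis, fell and had 81.5, 125 and 164 CPM in AEG1_MYC livers, against 316, 298 and 400.4 CPM in AEG1 livers (log2 fold change -1.46 ± 0.25, adjusted p = 0.0458). AEG1_MYC replicate 1 was the lowest and replicate 3 the highest of its group, still under every AEG1 liver. WT livers had 143, 148 and 146 CPM of Aacs, which the AEG1_MYC livers overlapped, and MYC livers 193, 302 and 310 CPM. The MYC over WT log2 fold change of Aacs was positive, at 0.88 ± 0.25, and not called. Ces2c, a carboxylesterase, rose by a log2 fold change of 1.14 ± 0.19, Elovl7, a fatty acid elongase, by 3.7 ± 0.57 and Plat, the tissue plasminogen activator, by 3.56 ± 0.58. Bile acid genes as a list had 2 rises, Abcc4 and Amacr, and 0 falls among 28 tested, with a median of -0.29. At an unadjusted p under 0.05, 4 of the 28 were higher and 7 lower, beside 10.1% and 7.33% of all tested genes. Without overlap 3 lay above and 4 below, beside 9.60% and 8.24%. DESeq2 called 2 higher and 1 lower, beside 3.45% and 1.67%. Without AEG1_MYC replicate 3 that list held 2 rises and 6 falls, and without AEG1_MYC replicate 2 it held 1 rise. Its median was -0.16 without AEG1_MYC replicate 1.

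Rises among signalling and cell-structure genes had mixed roles. Gucy1b3, the β subunit of the nitric oxide receptor guanylate cyclase, fell and had 4.72, 4.15 and 4.85 CPM in AEG1_MYC livers, against 10.7, 10.1 and 12.1 CPM in AEG1 livers (log2 fold change -1.26 ± 0.22, adjusted p = 0.0473). The groups were narrow and well apart. Socs3, the feedback inhibitor of STAT3 signalling, rose and had 22.6, 28.4 and 10.9 CPM in AEG1_MYC livers, against 5.86, 6.41 and 5.57 CPM in AEG1 livers (log2 fold change 1.8 ± 0.30, adjusted p = 0.0409; called in 1 of 12 fits that leave out 1 library, that without AEG1_MYC replicate 3). Hrk, a BH3-only protein that promotes apoptosis, rose and had 2.91, 11.6 and 2.05 CPM in AEG1_MYC livers, against 0.307, 0.388 and 0.226 CPM in AEG1 livers (log2 fold change 4.19 ± 0.71, adjusted p = 0.0452). Both were highest in AEG1_MYC replicate 2 and lowest in replicate 3. Rec8, a cohesin subunit of meiosis, had 7.17, 54.2 and 24.9 CPM in AEG1_MYC livers, against 2.01, 0.874 and 1.91 CPM in AEG1 livers (log2 fold change 4.14 ± 0.69, adjusted p = 0.0452). Nptx1, a neuronal pentraxin, had 17.5, 17.4 and 8.76 CPM in AEG1_MYC livers, against 0.474, 0.0971 and 1.03 CPM in AEG1 livers (log2 fold change 4.67 ± 0.68, adjusted p = 0.0213), and Kif26b, a kinesin-family protein, had 5.58, 22.4 and 5.62 CPM in AEG1_MYC livers, against 0.307, 0.243 and 0.527 CPM in AEG1 livers (log2 fold change 4.91 ± 0.71, adjusted p = 0.0213). Kif26b resembled Sp5 in that AEG1_MYC replicate 2 stood far above replicates 1 and 3, which were near each other and above every AEG1 liver. Regulators of small GTPases that rose were Dab2ip, Rasgrf2 and Arhgef3, with log2 fold changes of 1.13 ± 0.16, 1.42 ± 0.23 and 1.03 ± 0.18. The protein kinase gene Dyrk3 rose by 3.17 ± 0.50, Itm2a by 2.73 ± 0.41, Cib2 by 1.67 ± 0.29, the mitotic kinesin Kif15 by 2.42 ± 0.43, 9330182L06Rik (Elapor2 in RefSeq) by 2.93 ± 0.36 and the transcribed pseudogene 9030619P08Rik by 2.16 ± 0.32. Gm13251 (Zfp992 in RefSeq), of a zinc-finger family with close copies, fell by 2.42 on the log2 scale at a mean level under 1.5 CPM in both groups.

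Lists of c-Myc's textbook programme of ribosomes and growth had 0 members called by edgeR. Among 34 textbook MYC target genes the median was 0.27, with 6 above and 1 below without overlap. At an unadjusted p under 0.05, 8 of the 34 were higher and 0 lower, beside 10.1% and 7.33% of all tested genes, and DESeq2 called 3 higher. The median difference from the AEG1 mean was 0.45, 0.51 and -0.03 in AEG1_MYC replicates 1, 2 and 3. Slc7a5, an importer of large amino acids, had 6.05, 13.2 and 5.65 CPM in AEG1_MYC livers, against 2.09, 2.09 and 2.89 CPM in AEG1 livers (log2 fold change 1.81 ± 0.36, adjusted p = 0.0724). Mat2a, which makes S-adenosylmethionine, had 185, 178 and 111 CPM in AEG1_MYC livers, against 78.99, 79.8 and 84.1 CPM in AEG1 livers (log2 fold change 0.97 ± 0.20, adjusted p = 0.0771). Neither gene's groups overlapped. The 34 genes held 3 rises and a median of 0.48 without AEG1_MYC replicate 3, and without AEG1_MYC replicate 2 the median was 0.16 with 0 called.

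Among 44 genes of ribosome biogenesis and RNA polymerase I the median was 0.28. In all, 4 of the 44 lay above without overlap, beside 9.60% of all tested genes. At an unadjusted p under 0.05, 8 were higher and 1 lower, beside 10.1% and 7.33% of all tested genes. DESeq2 called 2 of the 44 higher, beside 3.45% of all tested genes. Their differences were 0.36, 0.50 and -0.11 in AEG1_MYC replicates 1, 2 and 3. Npm1, the nucleolar chaperone nucleophosmin, had 48.6, 66.3 and 45.3 CPM in AEG1_MYC livers, against 30.3, 30.96 and 40.9 CPM in AEG1 livers (log2 fold change 0.65 ± 0.16, adjusted p = 0.106). Cytosolic ribosomal protein genes had a median of 0.49 over 46 tested members, of which 32 lay above and 0 below without overlap. Of these 46, 31 were higher and 0 lower at an unadjusted p under 0.05, and DESeq2 called 17 higher. Their differences were 0.30, 0.69 and 0.43 in the 3 AEG1_MYC livers, so each of these livers had a positive one. Rps20 had 44.96, 59.1 and 48.7 CPM in AEG1_MYC livers, against 33.6, 28.97 and 36.7 CPM in AEG1 livers (log2 fold change 0.62 ± 0.13, adjusted p = 0.0771). Rplp0 had 135, 283 and 185 CPM in AEG1_MYC livers, against 102, 106 and 104 CPM in AEG1 livers (log2 fold change 0.96 ± 0.22, adjusted p = 0.0983). Many ribosomal protein genes have near-identical pseudogenes, which makes their counts uncertain. Of the MAX network, 1 gene of 14 rose, Myc itself, beside a median of 0.25; Mxd1, a partner of MAX that opposes MYC, had 12.9, 10.2 and 11.3 CPM in AEG1_MYC livers, against 7.95, 6.697 and 8.49 CPM in AEG1 livers (log2 fold change 0.57 ± 0.17, adjusted p = 0.148). Without AEG1_MYC replicate 3, 3 members of that network and 3 ribosomal protein genes rose. The ribosome biogenesis median was 0.44 without AEG1_MYC replicate 3 and 0.14 without replicate 2.

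Mitotic genes had higher median levels in AEG1_MYC livers, with 0 of 25 called by edgeR. At an unadjusted p under 0.05, 22 were higher, beside 10.1% of all tested genes. All 25 log2 fold changes were positive, the median was 1.76, and 22 members had no overlap, all above. DESeq2 called 12 higher, beside 3.45% of all tested genes. The median difference from the AEG1 mean was 1.24, 2.45 and 1.35 in AEG1_MYC replicates 1, 2 and 3, against -0.43, -0.13 and 0.68 in the AEG1 livers. Top2a, the topoisomerase that untangles replicated DNA, had 6.84, 14.3 and 5.52 CPM in AEG1_MYC livers, against 1.004, 1.75 and 3.31 CPM in AEG1 livers (log2 fold change 2.13 ± 0.52, adjusted p = 0.103). Plk1, a kinase that drives mitosis, had 0.958, 2.31 and 1.22 CPM in AEG1_MYC livers, against 0.279, 0.34 and 0.527 CPM in AEG1 livers (log2 fold change 1.95 ± 0.49, adjusted p = 0.107). Levels stayed low in every liver: the 25 genes summed to 71.7, 154 and 74.4 CPM in AEG1_MYC livers, against 26.6, 31.7 and 49.96 CPM in AEG1 livers. DNA replication genes had a median of 0.34 over 25 members with 0 called, 6 higher and 1 lower at an unadjusted p under 0.05, and 2 called higher by DESeq2; Gins2, of the replicative helicase, had 1.12, 2.19 and 1.19 CPM in AEG1_MYC livers, against 0.279, 0.34 and 0.552 CPM in AEG1 livers (log2 fold change 1.92 ± 0.41, adjusted p = 0.0788). Leaving out AEG1_MYC replicate 3 gave 2 mitotic genes that rose, and the median without AEG1_MYC replicate 2 was 1.27. For DNA replication genes that median was 0.21.

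E-box windows were searched in the same promoters because c-Myc with MAX binds CACGTG, a palindrome that reads alike on both strands and does not overlap the TCF/LEF letters. They were in 3 of 32 called genes with a window (9.38%), against 8.09% of all genes with one. The 3 genes, Abcc4, Rasgrf2 and Tmc6, all rose, and Tmc6 held 2 matches. The windows of Abcc4 at chr14:118706170-118706469, minus strand, and of Tmc6 at chr11:117780643-117780942, minus strand, follow with each match in capitals (RefSeq, GRCm38.p6).
Abcc4: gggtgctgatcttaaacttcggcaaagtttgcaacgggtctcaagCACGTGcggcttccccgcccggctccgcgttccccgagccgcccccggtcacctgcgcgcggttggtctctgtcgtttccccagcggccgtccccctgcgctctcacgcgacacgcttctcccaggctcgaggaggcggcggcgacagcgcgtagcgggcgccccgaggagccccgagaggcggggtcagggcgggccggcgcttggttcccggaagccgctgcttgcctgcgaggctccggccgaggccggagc
Tmc6: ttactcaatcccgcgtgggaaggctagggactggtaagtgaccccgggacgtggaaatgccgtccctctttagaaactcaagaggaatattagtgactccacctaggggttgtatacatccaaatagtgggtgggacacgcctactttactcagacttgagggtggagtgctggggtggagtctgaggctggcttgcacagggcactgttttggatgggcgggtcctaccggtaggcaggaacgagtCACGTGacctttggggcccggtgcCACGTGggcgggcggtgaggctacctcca
The share among called genes was near that of all genes.

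Lipid synthesis lists had negative medians. Beside the counts that follow, 9.60% of all tested genes lay above and 8.24% below without overlap. At an unadjusted p under 0.05, 10.1% were higher and 7.33% lower, and DESeq2 called 3.45% higher and 1.67% lower. Lipogenesis and lipid storage had 0 of 31 called by edgeR (4 higher and 9 lower at an unadjusted p under 0.05), a median of -0.51, 1 above and 9 below without overlap, and DESeq2 called 2 higher and 8 lower. Elovl6, a fatty acid elongase, had 231, 103 and 198 CPM in AEG1_MYC livers, against 347, 698 and 949 CPM in AEG1 livers (log2 fold change -1.91 ± 0.39, adjusted p = 0.0771). Its levels were 159, 279 and 234 CPM in WT livers and 192, 249 and 183 CPM in MYC livers. Fasn, fatty acid synthase, chosen after its values were seen, had 783, 547 and 1368 CPM in AEG1_MYC livers, against 1480.2, 2608 and 3701 CPM in AEG1 livers (log2 fold change -1.53 ± 0.37, adjusted p = 0.101). All AEG1_MYC livers lay below all AEG1 livers for both, though AEG1 livers themselves spread over more than 2-fold. Mogat2, which makes diacylglycerol, went against the list and had 19.9, 10.99 and 1.83 CPM in AEG1_MYC livers, against 0.279, 0.631 and 0.803 CPM in AEG1 livers (log2 fold change 4.25 ± 0.84, adjusted p = 0.074; DESeq2 adjusted p = 9.63e-06). The list's median difference was 0.02, -1.32 and -0.51 in AEG1_MYC replicates 1, 2 and 3. Without AEG1_MYC replicate 3, 3 members rose and 6 fell, and without AEG1_MYC replicate 2 the median was -0.26. Cholesterol synthesis had 0 of 23 called by edgeR (0 higher and 8 lower at an unadjusted p under 0.05) and 2 called lower by DESeq2, a median of -0.41, 0 above and 7 below, beside -0.35 in MYC against WT livers; Mvd, an enzyme of the mevalonate pathway, had 13.7, 29.1 and 25.9 CPM in AEG1_MYC livers, against 31.3, 56.6 and 64.7 CPM in AEG1 livers (log2 fold change -1.15 ± 0.31, adjusted p = 0.129). In the ER chaperone and ATF4 list 0 of 25 were called (3 higher and 8 lower at an unadjusted p under 0.05, 1 and 1 by DESeq2), with a median of -0.39; Trib3, a stress-induced pseudokinase, had 9.42, 31.5 and 23.05 CPM in AEG1_MYC livers, against 4.02, 4.17 and 6.53 CPM in AEG1 livers (log2 fold change 2.11 ± 0.53, adjusted p = 0.107).

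Detoxification genes gave high values for single genes. Cyp2a5, a cytochrome P450 that oxidises coumarin, had 1624, 2544 and 1002 CPM in AEG1_MYC livers, against 155, 214 and 364 CPM in AEG1 livers (log2 fold change 2.82 ± 0.56, adjusted p = 0.0745; DESeq2 adjusted p = 7.36e-06). Gstm3, a glutathione transferase with close family copies, had 320.1, 922 and 133 CPM in AEG1_MYC livers, against 60.6, 62.02 and 55.4 CPM in AEG1 livers (log2 fold change 2.95 ± 0.70, adjusted p = 0.1). Neither was called by edgeR, and in both the AEG1_MYC livers lay above the AEG1 livers with replicate 3 the lowest. The drug-metabolising cytochrome P450 list held 0 called of 35 with a median of -0.24 (5 higher and 5 lower at an unadjusted p under 0.05, 2 higher by DESeq2). Of all tested genes, 10.1% were higher and 7.33% lower at an unadjusted p under 0.05, and DESeq2 called 3.45% higher and 1.67% lower. The glutathione and NRF2 list held 0 of 26 with a median of 0.23 (6 higher and 1 lower at an unadjusted p under 0.05, 4 and 1 by DESeq2). Without AEG1_MYC replicate 3 the cytochrome list held 2 rises and 3 falls and a median of -0.39, and the glutathione list held 5 rises. Without AEG1_MYC replicate 2 the glutathione median was 0.09.

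Markers of non-parenchymal cells were summarised as lists, with no test of a list as a whole, because whole liver holds all these cells. Stellate cell and fibroblast markers had 0 of 18 called by edgeR (0 higher and 10 lower at an unadjusted p under 0.05), a median of -0.64, 1 above and 10 below without overlap, and DESeq2 called 9 lower. Among all tested genes, 10.1% were higher and 7.33% lower at an unadjusted p under 0.05. Without overlap 9.60% lay above and 8.24% below, and DESeq2 called 1.67% lower. Reln, which quiescent stellate cells secrete, had 33.2, 41.1 and 46.6 CPM in AEG1_MYC livers, against 94.7, 85.9 and 98.8 CPM in AEG1 livers (log2 fold change -1.21 ± 0.25, adjusted p = 0.0771). Pdgfra, a growth factor receptor of these cells, had 5.88, 4.001 and 5.39 CPM in AEG1_MYC livers, against 10.8, 10.6 and 10.7 CPM in AEG1 livers (log2 fold change -1.07 ± 0.23, adjusted p = 0.0771). The difference was alike in the 3 AEG1_MYC livers, with list medians of -0.68, -0.74 and -0.59, and their summed level was 399, 289 and 439.5 CPM, against 689, 645 and 819 CPM in AEG1 livers. Endothelial markers had 0 of 24 called by edgeR (0 higher and 11 lower at an unadjusted p under 0.05), a median of -0.33, 0 above and 12 below, and DESeq2 called 5 lower. Kdr, the VEGF receptor, had 44.3, 40.9 and 55.3 CPM in AEG1_MYC livers, against 65.5, 67.02 and 81.1 CPM in AEG1 livers (log2 fold change -0.60 ± 0.13, adjusted p = 0.081). Of these markers 7 stellate and 2 endothelial ones fell when AEG1_MYC replicate 3 was left out, and the endothelial median was -0.52 without replicate 1.

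Inflammation markers were uneven between livers. The acute phase list had 1 rise, Socs3, of 26, and a median of 1.17, but its median difference was 2.03, -0.56 and -0.02 in AEG1_MYC replicates 1, 2 and 3, and the list median was -0.30 without replicate 1, with 0 called. The list held 6 rises without AEG1_MYC replicate 3. Saa1, a serum amyloid with a close copy in Saa2, had 3331, 4.297 and 41.02 CPM in AEG1_MYC livers, against 26.8, 26.7 and 39.5 CPM in AEG1 livers. AEG1_MYC replicate 1 alone stood far above, and replicate 2 was the lowest of all 6. Macrophage and Kupffer markers had 0 called of 21, by edgeR, by DESeq2 and at an unadjusted p under 0.05, with differences of 1.42, -0.45 and -0.37, and a summed level of 1919, 430.4 and 664 CPM in AEG1_MYC livers, against 743, 661 and 1109 CPM in AEG1 livers. Neutrophil markers had 0 called of the 4 of 12 that were tested (2 at an unadjusted p under 0.05, 1 by DESeq2), with summed levels of 56.03, 3.32 and 1.99 CPM in AEG1_MYC livers, against 2.34, 1.89 and 3.54 CPM in AEG1 livers. Without AEG1_MYC replicate 1 the macrophage median was -0.46, against 0.49 with all livers, and the neutrophil median 0.54, against 3.00; 3 neutrophil markers rose without AEG1_MYC replicate 3. The part of these cells in other differences of AEG1_MYC replicate 1 was not tested. T and NK cell markers (median -0.45 over 13), B and plasma cell markers (-0.16 over 13), bile duct markers (-0.06 over 12) and erythroid markers (0.53 over 4) had 0 called by edgeR or DESeq2 and at most 2 members each at an unadjusted p under 0.05.

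**Figure D4:**
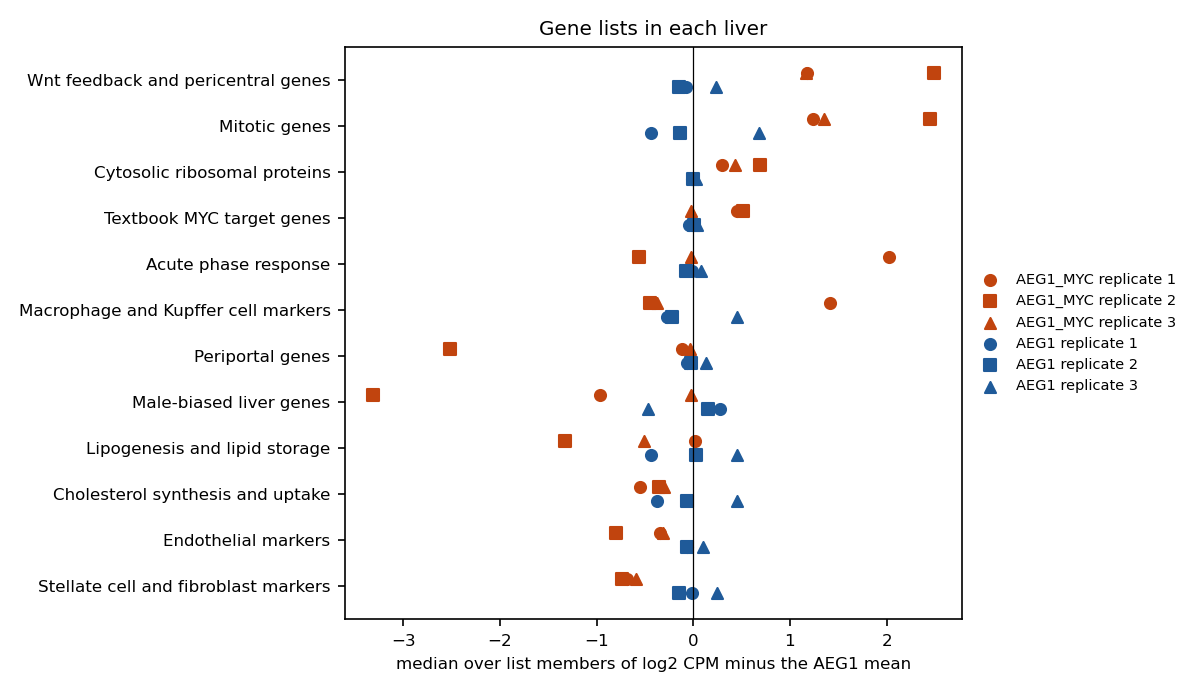
Median over the members of 12 gene lists of log2 CPM minus the AEG1 mean (x axis) in each AEG1_MYC (orange, above) and AEG1 liver (blue, below); circles, squares and triangles are replicates 1, 2 and 3. Stellate markers sit between -0.74 and -0.59 in all AEG1_MYC livers, while acute phase genes reach 2.03 in replicate 1 alone and periportal genes -2.52 in replicate 2 alone.

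In the remaining lists edgeR called 0 members, and the medians lay within 0.25 of 0 but for 6 lists. Male-biased liver genes had a median of -0.77 over 22, with differences of -0.97, -3.31 and -0.02 in AEG1_MYC replicates 1, 2 and 3, replicate 2 being the liver with low Y-linked genes. Female-biased genes had 0.30 over 22. Fetal liver and liver tumour genes had 0.84 over 22; of these Ly6d, a surface protein, had 34.3, 7.65 and 5.71 CPM in AEG1_MYC livers, against 0.362, 0.534 and 1.43 CPM in AEG1 livers (log2 fold change 4.31 ± 0.80, adjusted p = 0.066; DESeq2 adjusted p = 1.16e-07). Plasma proteins and apolipoproteins had -0.30 over 30, of which 6 lay below and 1 above without overlap, beside 8.24% and 9.60% of all tested genes. Ttr, the thyroxine and retinol carrier transthyretin, had 2692, 2367 and 4416 CPM in AEG1_MYC livers, against 5079, 5151 and 5157 CPM in AEG1 livers (log2 fold change -0.70 ± 0.22, adjusted p = 0.16). Circadian clock genes had 0.37 over 19, with AEG1 replicate 3 also displaced, at 0.78, against -0.20 and -0.24 in the other AEG1 livers. Of the 19, 12 were positive and 7 negative, from -3.62 to 1.45, so opposite shifts can offset each other in that median. Arntl had 2.78, 8.24 and 2.09 CPM in AEG1_MYC livers, against 26.5, 54.5 and 1.91 CPM in AEG1 livers (edgeR adjusted p = 0.262). The clock score, the first principal component of these genes, was 3.40, 1.44 and 4.74 in AEG1_MYC livers and -2.13, -4.31 and 4.68 in AEG1 livers. The part of clock phase in other differences was not tested. Polyamine genes had 0.37 over 9. Among the lists within 0.25 were translation factors (0.18 over 25), p53 response and apoptosis (0.23 over 28), G1 cyclins and E2F genes (0.22 over 20), nucleotide, serine and one-carbon synthesis (0.20 over 29), aminoacyl-tRNA synthetases (0.07 over 20) and coagulation factors (-0.15 over 22). Glycolysis and gluconeogenesis (-0.01 over 33), fatty acid oxidation (0.06 over 29), the urea cycle and amino acid breakdown (-0.18 over 39), oxidative phosphorylation (-0.08 over 31), complement (-0.03 over 24) and the interferon response (0.09 over 34) were there too, as were collagens and matrix (-0.02 over 25), epithelial-mesenchymal transition (0.03 over 22), angiogenesis (0.07 over 24), hepatocyte transcription factors (0.00 over 24), hepatocyte markers (-0.24 over 10) and MTDH partners (-0.01 over 12). Their members at an unadjusted p under 0.05 ranged from 1, in the clock and interferon lists, to 9, in the translation factors, and DESeq2 called at most 4 in any of them. Of all tested genes, 10.1% were higher and 7.33% lower at that unadjusted p, and DESeq2 called 3.45% higher and 1.67% lower. The 9 translation factors, of 25, were all higher, and DESeq2 called 4 of the 25 higher. In 10 of the 25 the AEG1_MYC livers lay above without overlap and in 1 below, beside 9.60% and 8.24% of all tested genes. Single livers moved many of these medians. Leaving out 1 AEG1_MYC liver took 8 of the 18 lists within 0.25 past that distance at least once, while 10 stayed within it each time. Without AEG1_MYC replicate 1 the median was -0.35 for the urea cycle, -0.33 for complement and -0.62 for hepatocyte markers. Without AEG1_MYC replicate 2 it was 0.07 for the urea cycle, 0.26 for complement and -0.02 for hepatocyte markers. The male-biased median was -0.40 without replicate 2 and -1.46, with 4 falls, without replicate 3. The fetal and tumour median was 0.34 without replicate 2 and 1.27, with 4 rises, without replicate 3, and the plasma protein median was -0.06 without replicate 2.

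The same c-Myc difference without the AEG-1 transgene was read from MYC against WT livers, which share no library with the comparison above. Here edgeR called 0 of 13684 genes (0.00%), with 475 at an unadjusted p under 0.05; limma called 0 and DESeq2 28. Myc had 23.4, 30.5 and 53.8 CPM in MYC livers and 4.73, 2.79 and 2.26 CPM in WT livers, without overlap, and a log2 fold change of 3.45 ± 0.47 (adjusted p = 0.266). Over all tested genes the SD of the log2 fold changes was 0.66 for AEG1_MYC over AEG1 and 0.38 for MYC over WT. Of the 44 called genes, 43 had a smaller difference in MYC against WT livers than in AEG1_MYC against AEG1 livers, and 25 had the same sign in both. The 44 were called on their difference in AEG1_MYC against AEG1 livers, so a smaller one elsewhere follows in part from that choice. The count of 43 is thus no test of the AEG-1 transgene. The Wnt feedback and pericentral list had a median of -0.42 in MYC against WT livers and mitotic genes one of 0.26, while cytosolic ribosomal proteins had 0.48, close to the 0.49 seen with AEG-1.

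The difference between these settings was itself tested as the interaction. It was called for 3 of 13684 genes (0.0219%), with 1266 at an unadjusted p under 0.05. Nkd1 had 4.39, 5.27 and 4.32 CPM in MYC livers and 7.14, 5.86 and 5.55 CPM in WT livers, so its MYC over WT log2 fold change was -0.41 ± 0.15 and the interaction 4.02 ± 0.21 (adjusted p = 1.95e-05). Tlr12 had 10.1, 13.7 and 11.4 CPM in MYC livers and 16.8, 14.4 and 13.8 CPM in WT livers, with a log2 fold change of -0.36 ± 0.15 and an interaction of 1.86 ± 0.21 (adjusted p = 0.0221). Gm106 had 0.242, 0.279 and 0.369 CPM in MYC livers and 0.214, 0.383 and 0.299 CPM in WT livers, with 0.02 ± 0.44 and an interaction of 4.65 ± 0.60 (adjusted p = 0.0476). In none of the 3 was a MYC liver as high as any AEG1_MYC liver. The interaction of Myc was 1.16 ± 0.62 (adjusted p = 0.591). Slc1a2 missed the threshold, with 88.01, 87.6 and 98.1 CPM in MYC livers and 302, 114 and 138 CPM in WT livers and an interaction of 4.51 ± 0.62 (adjusted p = 0.0521). By contrast 1500012F01Rik, the small nucleolar RNA host gene named Zfas1 in RefSeq, had 16.2, 26.2 and 20.1 CPM in AEG1_MYC livers, against 8.84, 8.69 and 11.5 CPM in AEG1 livers, and 19.5, 22.1 and 24.9 CPM in MYC livers and 9.36, 10.8 and 8.499 CPM in WT livers. It rose in AEG1_MYC against AEG1 livers (log2 fold change 1.1 ± 0.19, adjusted p = 0.0458) and had a MYC over WT log2 fold change of 1.21 ± 0.19, with an interaction of -0.11 ± 0.27 (adjusted p = 0.924). Dropping AEG1_MYC replicate 3 gave 32 interaction calls, and 1 call was left without AEG1_MYC replicate 2, any 1 AEG1 library, any 1 WT library or MYC replicate 1.

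**Figure D5:**
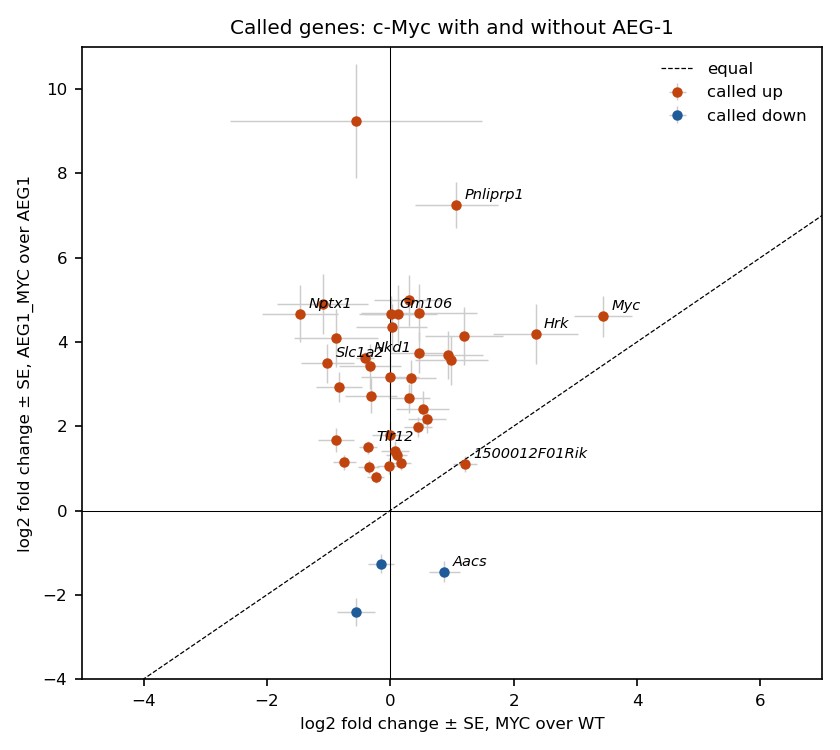
Log2 fold change ± SE of MYC over WT (x axis) and of AEG1_MYC over AEG1 (y axis) for 41 of the 44 called genes, leaving out 3 genes at or near 0 reads in at least 1 group; the dashed line marks equal values. Most points lie near 0 on the x axis, Myc is at 3.45 and 4.61, and 1500012F01Rik lies near the line.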

How the data were processed

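RNA-seq of liver from 12 mice was deposited by the authors as raw counts per gene, 1 table a library. Each table lists 22609 genes; its 5 closing summary lines were dropped. Per the submitters' processing notes, the tools were CASAVA 1.8.2, TopHat2 2.0.7 and HTSeq with the mouse build mm9; version and annotation of the counting step, and whether it used strand, are not given in the sources used here. Overlapping, antisense and near-identical genes (ribosomal proteins, Gstm, Cyp2, Saa, zinc fingers) therefore have uncertain counts. Reads placed at several sites made up 46.5% to 52.8% of table entries in the 6 compared libraries.

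In R 4.3.3 with edgeR 4.0.16, genes passing filterByExpr (13684) were scaled by TMM and fitted with 1 coefficient per genotype over all 12 libraries, since the genotypes then share 1 estimate of spread. Each contrast got edgeR's quasi-likelihood test with the robust option (two-sided) and Benjamini-Hochberg adjustment over all tested genes; genes were called at an adjusted p under 0.05. CPM and log2 CPM (prior count 2) used the scaled library sizes. Precision at 3 mice a group was a median SE of 0.208 on the log2 scale, and of 0.294 for the interaction, (AEG1_MYC minus AEG1) minus (MYC minus WT). Tested on simulated data with 200 changed genes, the comparison recovered 39.5% at a 2-fold and 84.5% at a 4-fold change, with 6 and 5 false calls. The simulation gave all groups the same spread and every AEG1_MYC library the same change. The real AEG1_MYC livers were more uneven, so these shares may not hold for them.

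The comparison, its gene lists (49 and the hepatocyte markers) and the naming rule were chosen with earlier results of these data known. The rule names Myc and Mtdh, the called genes whose groups do not overlap and whose mean is 1 CPM or more (of these the 15 largest rises and the falls), called list members up to 4 per list or else the members of smallest p, and genes called in the interaction; the rest were chosen after their values were seen. By name, a few called genes are not reported here. Symbols were matched to RefSeq through its synonyms for promoter windows only, and no mm9 coordinates are given. Alternatives tried were 2 other scalings (RLE, upper quartile), other filters, no robust step, DESeq2 1.42.0, limma 3.58.1, the 6 libraries alone, a surrogate variable (sva 3.50.0), a clock score, leaving out libraries, and, added after the data were seen, list counts and DESeq2 counts without single libraries and acinar markers without the filter.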

Additional observations from a re-analysis of the deposited data

Results flagged for a closer look

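For 3 genes the c-Myc difference with the AEG-1 transgene differed, by the test of the interaction itself, from that without it. The interaction was 4.02 for Nkd1 (adjusted p = 1.95e-05), 1.86 for Tlr12 (adjusted p = 0.0221) and 4.65 for Gm106 (adjusted p = 0.0476) on the log2 scale, by edgeR. All 3 AEG1_MYC livers lay above all 9 other livers for each of these genes, as they did for 416 of 13684 tested genes.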

How the results depend on the processing

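The 41 rises and 3 falls became 472 and 228 by DESeq2, 2 and 0 with the 6 compared libraries alone, 20 and 1 with 1 surrogate variable, 18 and 1 with the clock score, 7 and 0 without AEG1_MYC replicates 1 and 2 (which assumes for the lone AEG1_MYC library the spread of other groups), and 57 and 1 by limma. Of those 7, 5 were among the 44: Nkd1, Pnliprp1, Gm106, Tlr12 and Myc. Leaving out 1 library gave 4 to 392 rises, 0 to 238 falls, 1 to 32 interaction calls and 0 to 1 calls in MYC against WT. The 3 interaction calls became 153 by DESeq2, 5 by limma, 5 without the robust step, 1 with the clock score and 1 without AEG1_MYC replicates 1 and 2; the 0 calls in MYC against WT became 28 by DESeq2. Other scalings and filters gave 35 to 41 rises, and the cause of each shift was not tested. DESeq2 rises without 1 compared library, added after the data were seen, numbered 191 (without AEG1_MYC replicate 2 or AEG1 replicate 1) to 889 (without AEG1_MYC replicate 3). Direction changed for 3 named genes, none of them called. Mtdh, at 0.00, was -0.0136 by limma, -0.12 without AEG1_MYC replicates 1 and 2, and -0.10 to 0.0773 without single libraries. Cela1, at -0.31, was 0.47 without AEG1_MYC replicates 1 and 2, and -0.94 to 0.0329 without single libraries. Saa1, at 5.18, was -0.45 to 5.76 without single libraries, lowest without AEG1_MYC replicate 1. No paired analysis was possible because the labels give the mice no shared numbers. Genes too low to be tested, such as 20 of 22 acinar markers, have no test result in the reported comparison.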
